A study of Mus musculus with 2 samples.

Results

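Respiratory complex I (NADH:ubiquinone oxidoreductase) was followed in primary mouse hepatocytes through its nuclear-encoded subunits and the assembly factors named after it. Members were the transcript probes whose gene name on the array began with *Nduf* followed by a, b, c, s, v, ab or af and a number, which gave 70 of 56605 probes and 45 of 37074 gene names. All 45 symbols stood in the RefSeq table of the mouse genome. The *Drp1*LiKO cells came from *Alb-Cre*Tg/+ *Drp1*flox/flox mice, in which Cre is driven by the albumin promoter, and the control cells, labelled wild type, came from *Drp1*flox/flox sibling littermates that carried the floxed alleles without Cre. Both genotypes had a C57BL/6 background. The loss of DRP1, the dynamin-related GTPase that divides mitochondria, is thereby limited to cells that use this promoter, and other liver cells in a culture keep the gene. Both cultures were harvested 24 h after seeding on collagen, without lipopolysaccharide, and the age, sex and number of mice behind each array are not given in the sources used here. RNA was labelled with Cy3 and read on 1 Agilent array per genotype, both on 1 slide. There was no replicate, so nothing was tested, p-values are not given, and a difference holds for these 2 arrays without any spread between animals.

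Complex I is the entry point of the respiratory chain. It takes electrons from NADH at the tip of its matrix arm, passes them along iron-sulfur clusters to ubiquinone at the foot of that arm, and uses the energy to pump protons through its membrane arm. Its matrix arm is built from an NADH-binding N module and a ubiquinone-binding Q module, and its membrane arm from a proximal and a distal pump module. The membrane core is made of ND subunits encoded by mitochondrial DNA, all other subunits are made in the cytosol and imported, and assembly factors join the modules without staying in the finished enzyme. Hepatocytes are rich in mitochondria and rely on this chain for ATP.

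The transcripts of complex I differed little between the genotypes. None of the 45 genes was 1.5-fold or more higher or lower in *Drp1*LiKO cells, while among all 20165 genes detected 10.3% were past that limit in the higher and 10.3% in the lower direction. Against the 9972 genes with signals in the range of complex I genes, the corresponding shares were 5.84% and 5.34%. None reached a Z score of 2, a limit that the study also used for these arrays and that was computed here over all kept probes. Of all genes, 3.5% passed it in the higher and 2.81% in the lower direction. In the signal range of complex I, 140 of 9972 genes passed it in the higher and 68 in the lower direction. A count of 0 among 45 genes is thus not far from the shares in that range. The targeted gene *Drp1* did not reach this limit either, with a Z score of -1.95. Larger differences were found for the part of complex I that is written in mitochondrial DNA, where *ND4*, *ND4L* and *ND5* were 1.76-fold to 1.98-fold lower in *Drp1*LiKO cells after scaling. In the normalized values that the authors deposited, *ND4* alone of the 3 was past 1.5-fold.

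Some of the sequences behind these values are shown here first, because the array reads a transcript only through 60 bases of it. The mitochondrial probes below are given as the array files give them, with positions in mm9. They were chosen because they gave the lowest ratios of named complex I genes and hold the one ND gene of the opposite strand. A lower ratio, -1.28, came from a probe without a gene name at chrM:10860-10919 on the + strand, which is not printed. *ND4* was read at chrM:11370-11429, *ND4L* at chrM:10114-10173 and *ND5* at chrM:13402-13461, all on the + strand, and *ND6* at chrM:13552-13611 on the - strand.

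ND4: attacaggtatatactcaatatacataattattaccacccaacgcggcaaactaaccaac
ND4L: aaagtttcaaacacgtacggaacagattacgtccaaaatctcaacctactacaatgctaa
ND5: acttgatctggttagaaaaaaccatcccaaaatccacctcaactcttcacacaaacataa
ND6: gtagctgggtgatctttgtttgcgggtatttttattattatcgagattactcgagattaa

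The *ND5* and *ND6* probes lie within a short stretch of the same DNA and read opposite strands of it. Their values are given with those of the other ND genes.

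For the nuclear genes, promoters of RefSeq (GRCm38.p6, 250 bases before to 50 after each start) were matched for 39 of 45 members, and 5 short letter patterns were looked for on both strands. The pattern GCGCATGC, the central letters of sites bound by NRF1, a factor known for driving genes of the respiratory chain, stood in 5 of 39 promoters (12.8%), against 2.71% of all 32851 promoters, 5.198% of those of detected genes, and 8 of 32 (25%) for respiratory complexes II to V. It reads GCATGCGC on the other strand, and the 2 overlap where GCGCATGCGC occurs. The holders were *Ndufa6*, *Ndufa8*, *Ndufa11*, *Ndufaf4* and *Ndufaf5*. The last 120 bases before the start are printed for the 4 promoters that held the pattern there, with the pattern in capitals.

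Ndufa11, chr17:56717642-56717761 (+): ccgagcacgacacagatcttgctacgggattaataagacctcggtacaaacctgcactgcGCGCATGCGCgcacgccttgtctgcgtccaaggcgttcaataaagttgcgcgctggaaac
Ndufa6, chr15:82354292-82354411 (-): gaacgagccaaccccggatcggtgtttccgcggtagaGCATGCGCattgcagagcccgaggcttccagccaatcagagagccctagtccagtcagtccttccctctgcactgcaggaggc
Ndufa8, chr2:36049339-36049458 (-): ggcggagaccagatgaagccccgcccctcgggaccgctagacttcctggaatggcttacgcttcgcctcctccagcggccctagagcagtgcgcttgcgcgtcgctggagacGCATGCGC
Ndufaf4, chr4:24897963-24898082 (+): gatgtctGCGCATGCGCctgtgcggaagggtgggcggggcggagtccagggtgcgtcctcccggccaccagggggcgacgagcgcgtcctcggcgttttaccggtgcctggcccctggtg

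The holders did not move as 1 group. *Ndufa11* had one of the lowest ratios of the membrane arm and *Ndufa6* the highest of its module, and the median log2 ratio was 0.13 in the 5 genes with the pattern and -0.09 in the others.

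The pattern AAGATGGC (GCCATCTT on the other strand), found in sites of the zinc finger factor YY1, stood in 7 of 39 promoters (17.9%), against 2.75% of all promoters, 4.68% of those of detected genes and 2 of 32 (6.25%) for complexes II to V. In all 7 it lay on the coding strand within the 50 bases after the start, beginning between base 23 and base 39. That placement was seen in 0.865% of all promoters and 2.05% of those of detected genes. The pattern holds the letters ATG, so it can also be part of the beginning of a reading frame. The 30 bases around it are shown because the pattern sits at nearly the same place in genes of all modules.

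Ndufa3, chr7:3617377-3617406 (+): cttgtcgccgccaagaacAAGATGGCcggg
Ndufa9, chr6:126849104-126849133 (-): cgtgaggcattgtgggagAAGATGGCggcc
Ndufb8, chr19:44555393-44555422 (-): tgaaccgcggagaaggtgAAGATGGCtgcc
Ndufc1, chr3:51408922-51408951 (-): aggcggagcctgcggaacAAGATGGCgccg
Ndufs4, chr13:114388048-114388077 (-): ctggcgtttgcctacaggAAGATGGCggcg
Ndufs6, chr13:73328438-73328467 (-): gggtcaagggtcaccggcAAGATGGCggcg
Ndufs7, chr10:80249455-80249484 (+): tgtctgaaggccgaggccAAGATGGCggcg

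The 7 genes had a median log2 ratio of -0.20 and the 32 without the pattern one of -0.07. The pattern CCGGAAG of ETS factors stood, on either strand, in 5 promoters (12.8%), above the 8.86% of all promoters and below the 17.3% of detected genes and the 37.5% of complexes II to V. The pattern GGGCGG of SP1 stood on either strand in 20 (51.3%), against 35.7% of all promoters, 61.4% of those of detected genes and 37.5% for complexes II to V. The pattern TATAAA of the TATA box stood on either strand in 4 (10.3%), against 13.6% of all promoters, 10.6% of those of detected genes and 1 of 32 for complexes II to V. A match of letters is a description of the sequence and does not show that a factor binds there.

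In the values that follow, a signal is the processed intensity of a probe before scaling, and a ratio is the log2 ratio of *Drp1*LiKO minus control after scaling each array to its 75th percentile. This reference lay at a signal of 313 for control against 356 for *Drp1*LiKO cells, so a gene whose signal rose by 0.18 on the log2 scale has a ratio of 0. Signals of different probes cannot be compared with each other. The error of the scanner software, 10% of a signal at these levels, gave each ratio an SE of 0.20 to 0.21. The noise between spots was smaller, 0.055 for a ratio, from 274 probes printed 10 times with signals in the same range. Neither of these holds the spread between cultures.

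The targeted gene was examined first. *Drp1*, listed as *Dnm1l*, had a signal of 2602 in control against 1217 in *Drp1*LiKO cells, 2.43-fold lower after scaling at a log2 ratio of -1.28. Its Z score was -1.95, so a gene can be more than 1.5-fold lower here without reaching -2. Of the 70 complex I probes, 61 were well above background on both arrays, 2 on 1 array and 7 on neither. Each of the 45 genes had at least 1 probe above background on both arrays, and 0 probes were saturated. The signals of the brightest probes reached from 326 to 60877 in control cells and from 472 to 70524 without *Drp1*, so each member was read far above the lowest signals that counted as detected.

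**Figure D1:**
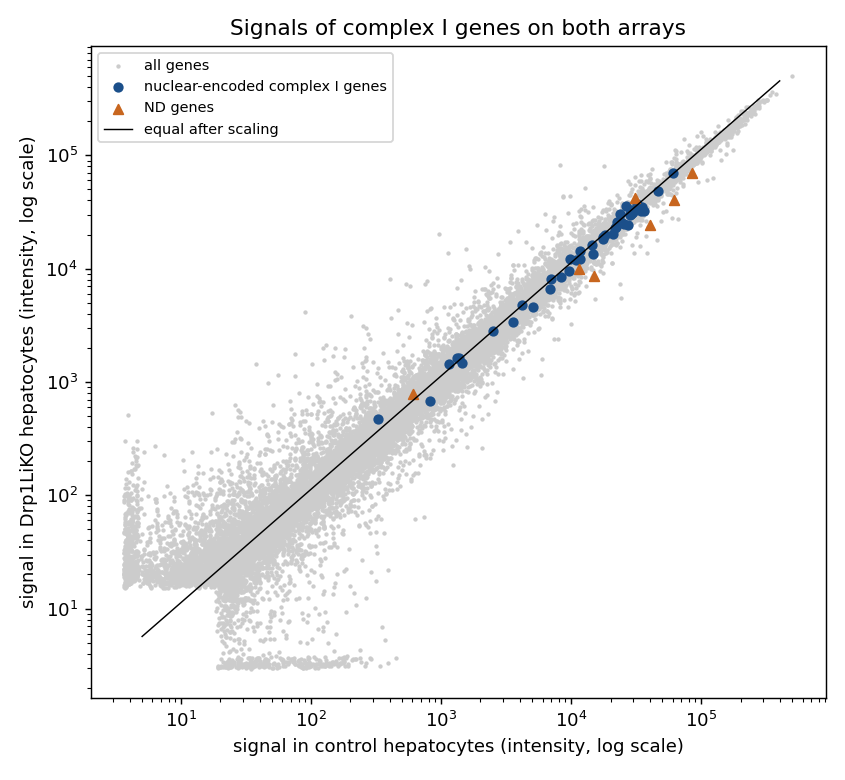
Signal of each gene in control (x axis) and *Drp1*LiKO hepatocytes (y axis), in intensity on log scales, 1 array per genotype; grey points are all genes detected, blue circles the 45 nuclear-encoded complex I genes, orange triangles the 7 ND genes, and the line marks equal signals after scaling. The blue circles lie close to the line at signals of 326 and more, and several triangles lie below it.

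The median log2 ratio of the 45 genes was -0.09, beside -0.05 over all genes detected. Of the 45, 15 (33.3%) had a ratio above 0, beside 44.5% of all genes. The ratios spread little. Their SD was 0.17, while genes in the same signal range had an SD of 0.46. That range runs from the dimmest to the brightest member, and genes within it were not matched to the members by signal. The ratio lay within 1.1-fold in 27 genes (60%) and within 1.2-fold in 38 (84.4%). In the signal range as a whole, 37.0% and 63.4% of genes lay within these limits. Only *Ndufa4l2*, on the lower side, was beyond 2 times the SE of its ratio, a limit that 9.66% of genes in the signal range passed on the higher and 10.6% on the lower side. In the deposited values its ratio was -0.35, within that limit, and 0 members were beyond it.

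**Figure D2:**
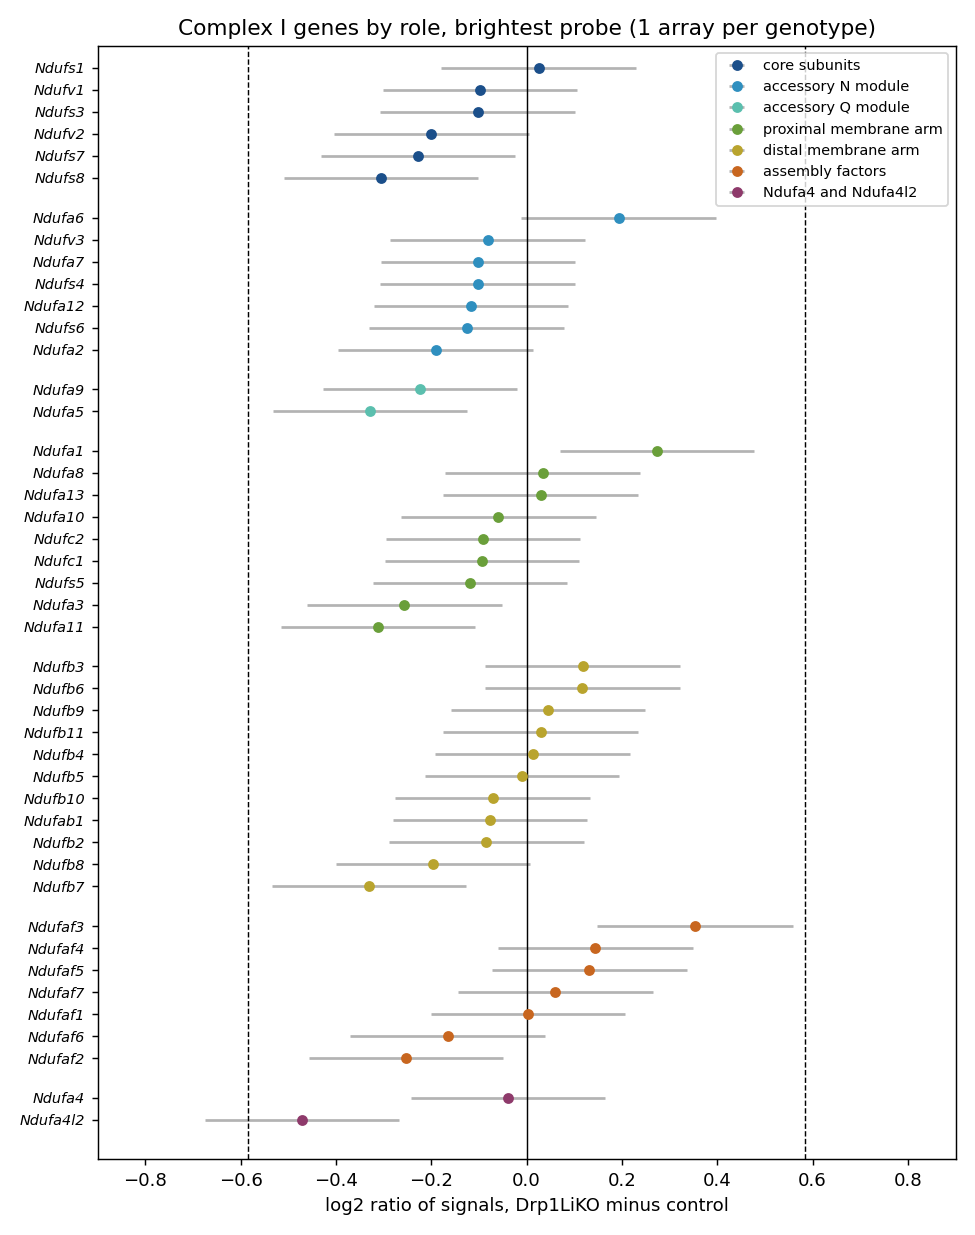
Log2 ratio of *Drp1*LiKO minus control (x axis) at the brightest probe of 44 of the 45 genes, grouped by role; bars are 1 SE of the scanner software's error model, and dashed lines mark 1.5-fold. All points lie between the dashed lines, from -0.47 for *Ndufa4l2* to 0.35 for *Ndufaf3*.

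The core subunits, which carry the flavin, the iron-sulfur clusters and the ubiquinone pocket, had ratios at or a little below 0, with 1 of 7 above 0. *Ndufv1*, which binds NADH and the flavin that takes its electrons, had a signal of 21982 in control against 23311 in *Drp1*LiKO cells and a log2 ratio of -0.10. *Ndufv2*, its partner with an iron-sulfur cluster of its own, went from 9553 to 9441, a ratio of -0.20. *Ndufs1*, the largest subunit of the matrix arm and holder of several clusters, was the one core gene above 0, with signals of 6948 and 8024 and a ratio of 0.03. The 3 genes of the N module were thus all within 1 SE of 0.

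In the core of the Q module, *Ndufs3*, a scaffold protein without a cluster, had signals of 17423 in control against 18419 in *Drp1*LiKO cells and a log2 ratio of -0.10. *Ndufs7*, which holds the last cluster before ubiquinone, had signals of 20857 and 20220 and a ratio of -0.23. The lowest of the core was *Ndufs8*, a protein with clusters that lead to that last one, with signals of 14672 and 13475 and a ratio of -0.31. It was the only core gene beyond 1.2-fold.

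Accessory subunits surround this core without taking part in electron transfer. In the N module their median log2 ratio was -0.10, with 1 of 7 above 0. The highest was *Ndufa6*, a LYR-motif protein that holds the mitochondrial acyl carrier protein on the matrix arm, with a signal of 23609 in control against 30638 in *Drp1*LiKO cells, a ratio of 0.19. The lowest was *Ndufa2*, a protein with a thioredoxin-like fold, with 35190 and 34995, a ratio of -0.19. Between them, *Ndufv3*, *Ndufa7*, *Ndufs4*, *Ndufa12* and *Ndufs6* lay within a narrow band from -0.13 to -0.08. Mutations of *Ndufs4* and *Ndufs6* are known causes of complex I deficiency. Both accessory genes of the Q module lay below 0. *Ndufa9*, which binds a nucleotide near the ubiquinone site, had signals of 6797 and 6605 and a ratio of -0.22, and *Ndufa5* had signals of 35888 and 32443 and a ratio of -0.33.

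Along the membrane arm the proximal genes had a median log2 ratio of -0.09, with 3 of 9 above 0, and the distal genes one of -0.01, with 5 of 11 above 0. The highest of the proximal arm was *Ndufa1*, a small X-linked membrane subunit, with a signal of 26291 in control against 36066 in *Drp1*LiKO cells, a ratio of 0.27. The lowest was *Ndufa11*, a membrane subunit at the contact with complex III in supercomplexes, with 5049 and 4618, a ratio of -0.31. Both genes therefore lay on opposite sides of 0, each beyond 1.2-fold. The brightest member, *Ndufa13*, also known as GRIM-19, had signals of 60877 and 70524 and a ratio of 0.03.

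In the distal arm *Ndufb3* was highest, with a signal of 9819 in control against 12090 in *Drp1*LiKO cells and a ratio of 0.12, and in the deposited normalized values its ratio was -0.24. *Ndufb7*, a protein of the intermembrane side with cysteine pairs, was lowest, with 27046 and 24406 and a ratio of -0.33. *Ndufab1*, the acyl carrier protein that also serves mitochondrial fatty acid synthesis, had 23951 and 25780 and a ratio of -0.08. The other 8 genes of this arm had ratios from -0.20 for *Ndufb8* to 0.12 for *Ndufb6*.

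The assembly factors had a median log2 ratio of 0.06, with 5 of 7 genes above 0. In the deposited values their median was -0.01, with 3 of 7 above 0. *Ndufaf3* had the highest ratio of the family, 0.35, at the lowest signal of the family, 326 in control against 472 in *Drp1*LiKO cells. Its partner in the early assembly of the Q module, *Ndufaf4*, had signals of 1153 and 1446 and a ratio of 0.14. *Ndufaf5*, which hydroxylates an arginine of *Ndufs7*, had 1316 and 1636, a ratio of 0.13, and *Ndufaf7*, an arginine methyltransferase, had 1377 and 1630, a ratio of 0.06. No ratio of these 4 was beyond 2 times its SE. *Ndufaf1*, which acts on the membrane arm, was level at 0.00. *Ndufaf2*, a relative of *Ndufa12* that acts late in assembly, was lowest, with 3539 and 3371 and a ratio of -0.25.

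*Ndufa4* and *Ndufa4l2* carry the family's name but differ from it in role. *Ndufa4*, now counted as a subunit of complex IV, had a signal of 18076 in control against 19975 in *Drp1*LiKO cells, a ratio of -0.04. *Ndufa4l2*, its relative known to be induced by hypoxia, had a signal of 822 in control against 673 in *Drp1*LiKO cells. Its ratio of -0.47 was the lowest of all members, with a Z score of -0.71. In the deposited normalized values the lowest member was *Ndufa11* instead, at -0.39.

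Other probes of a gene gave a measure of how far such ratios can be trusted. Of 15 genes with more than 1 probe above background, 9 had probes of 1 sign and 6 had probes on both sides of 0, which were *Ndufa3*, *Ndufaf6*, *Ndufaf7*, *Ndufb5*, *Ndufb8* and *Ndufv1*. The 9 include *Ndufs1* and *Ndufa10*, each with a probe not well above background in control cells. The control value of such a probe was raised to the lowest detected signal, so its sign says little about agreement. The widest gap, 0.63, was that of *Ndufv3*. Its brightest probe, at chromosome 17 of mm9 from 31668209 to 31668268, had signals of 17591 and 18865 and a ratio of -0.08. Its other probe, from 31663758 to 31663817 in the same gene, had signals of 84.1 and 58.3 and a ratio of -0.71, past 1.5-fold, and was the only member probe above background on both arrays to be so. Which transcripts of *Ndufv3* the dim probe reads was not tested.

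In *Ndufaf6* the 3 probes ran from -0.17 to 0.28, and the highest value came from a dim probe with signals of 26.6 in control against 36.7 in *Drp1*LiKO cells. In *Ndufa3* both bright probes gave -0.26 and -0.25, while a dim one with signals of 51.6 and 66.8 gave 0.19. *Ndufab1*, *Ndufaf5* and *Ndufa5* had probe pairs within 0.03 of each other, those of *Ndufa5* sharing part of their sequence. The second probe of *Ndufs1* was not well above background in control cells and had a signal of 24.7 in *Drp1*LiKO cells, at least 1.196-fold higher, and the third probe of *Ndufa10*, above background in *Drp1*LiKO cells alone, gave no bound. The 7 probes dim on both arrays were 1 each of *Ndufa4l2*, *Ndufa7*, *Ndufaf5*, *Ndufb2*, *Ndufs3*, *Ndufs5* and *Ndufv2*, and each of these genes was read from a brighter probe. The probes of *Ndufa13* and *Ndufb2* lay within 0.08 of each other.

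**Figure D3:**
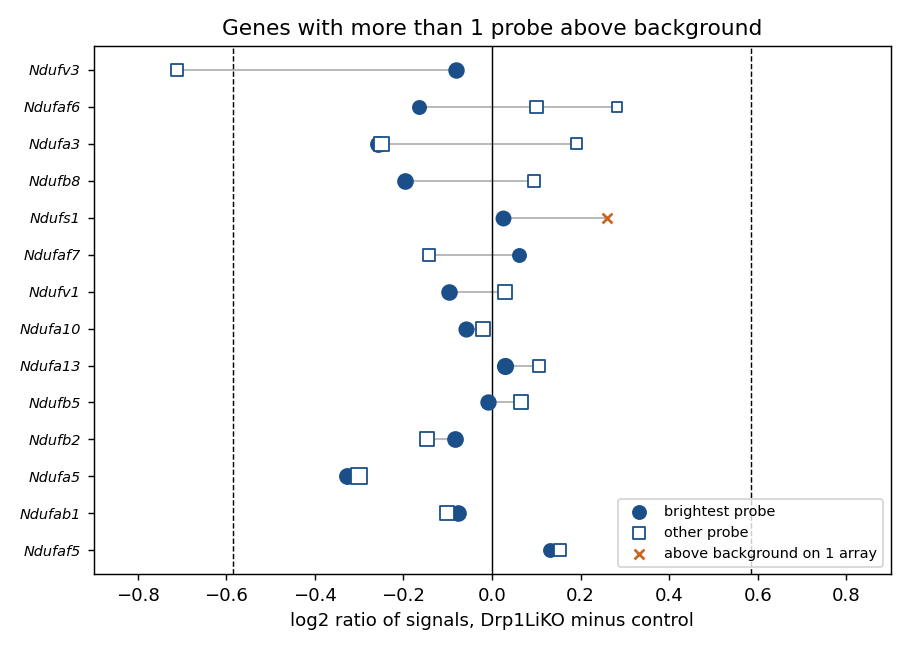
Log2 ratio of *Drp1*LiKO minus control (x axis) for the probes above background of 14 of the 15 genes with more than 1, leaving out the third probe of *Ndufa10*, ordered by the gap between probes; filled circles are the brightest probe of a gene, open squares its other probes, marker size grows with the control signal, and the cross of *Ndufs1* is a lower bound because that probe was above background on 1 array, with dashed lines at 1.5-fold. The 2 probes of *Ndufv3* are the farthest apart, and the large markers of most genes lie together.

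Other nuclear-encoded parts of the mitochondrial machinery spread little as well. The 42 detected genes of complexes II to V had a median log2 ratio of -0.06 and 13 above 0. They ranged from -0.30 for *Atp5k*, a subunit of the ATP synthase, to 0.53 for *Cox7a1*, a complex IV subunit best known from heart and muscle, and 0 were past 1.5-fold. The 77 mitochondrial ribosomal proteins had a median of -0.02 and 34 above 0, and 1 gene was past 1.5-fold, *Mrpl35*, which was above background in control cells alone and is therefore at least 1.64-fold lower. The median size of the ratio, regardless of sign, was 0.12 for complex I, 0.10 for complexes II to V and 0.13 for the ribosomal proteins, beside 0.19 for genes in the signal range of complex I. Small ratios were thus shared by these sets of nuclear genes.

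**Figure D4:**
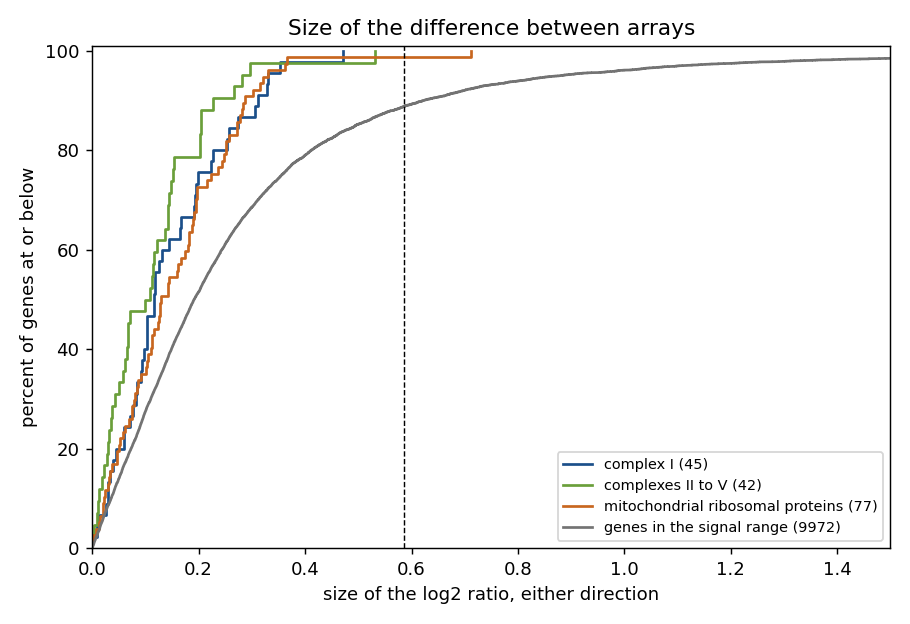
Percent of genes (y axis) with a log2 ratio of a given size or less in either direction (x axis), as steps for complex I, complexes II to V, mitochondrial ribosomal proteins and all genes in the signal range of complex I; the dashed line marks 1.5-fold. The curves of the 3 mitochondrial sets rise together and run above that of the 9972 genes in the signal range, with complex I at 60% at a size of 1.1-fold.

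Assembly also needs proteins that lack the family's name. Of a list of 14 names, 11 were detected, and their median log2 ratio was 0.04, with 7 above 0 and 0 past 1.5-fold. The list also held *Dmac1* and *Dmac2*, newer names of *Tmem261* and *Atp5sl*, which were detected under the older names. The highest was *Tmem126b*, a membrane protein of the assembly complex that contains *Ndufaf1*, with a signal of 335 in control against 567 in *Drp1*LiKO cells, a ratio of 0.58 or 1.49-fold after scaling. Its partners *Ecsit* and *Acad9* had ratios of 0.30 and 0.25. The lowest was *Timmdc1*, which helps to build the proximal membrane arm, with 5344 and 4471 and a ratio of -0.44. *Tmem126b* and *Timmdc1* were beyond 2 times their SE, on opposite sides. With spike-in scaling *Tmem126b* passed 1.5-fold at 0.62, and the median of its probes put *Timmdc1* at -0.21, within 2 SE.

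The ND genes, the membrane core of the enzyme, are transcribed inside mitochondria from both strands of the circular DNA as long precursors that are cut into shorter RNAs. Their median log2 ratio was -0.46. Of the 7, 5 were below 0, beside 11184 of all 20165 genes, and 3 were past 1.5-fold lower, beside 10.3% of all genes. The same 5 were beyond 2 times their SE, a limit that 10.6% of genes in the signal range of complex I passed on the lower side. None of the 7 had a Z score of -2 or less. *ND5* had a signal of 14981 in control against 8577 in *Drp1*LiKO cells, 1.98-fold lower after scaling at a ratio of -0.99. *ND4L* had signals of 40350 and 24392, and *ND4* of 61978 and 40010, which after scaling were 1.88-fold and 1.76-fold lower. These encode neighbouring pumps and a small subunit of the membrane arm, and each ratio was several times its SE of 0.20. The *ND4L* and *ND4* genes overlap on this DNA, so their probes may read the same RNA and are not separate counts. A probe without a gene name that lies in the *ND4* stretch gave a ratio of -1.28, against -0.81 for the named *ND4* probe.

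*ND1*, the subunit at the ubiquinone pocket, had signals of 11532 in control against 9858 in *Drp1*LiKO cells and a ratio of -0.41. *ND2* had signals of 85291 and 70499 and a ratio of -0.46. *ND6*, the only ND gene read from the other strand, had signals of 608 and 778 and a ratio of 0.17. *ND3* had signals of 30803 and 42218 and a ratio of 0.27, but the files place its probe on chromosome 1 of mm9 (24619613 to 24619672, - strand) and not on mitochondrial DNA, so its specificity is uncertain. In the deposited normalized values 5 of 7 ND genes were also below 0, but not the same 5: *ND2* was at 0.13 and *ND6* at -0.62, and *ND4* at -0.63 was past 1.5-fold, whereas *ND4L* at -0.45 and *ND5* at -0.47 were not.

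The 14 probes that the files place on the + strand of mitochondrial DNA all had ratios below 0, from -1.28 to -0.20 with a median of -0.50, and the 2 on the - strand, *ND6* and a transcript without a gene name, both stood at 0.17. In the deposited values this difference between strands was not seen: 13 of the 14 were below 0, from -0.95 to 0.13, and so were both of the - strand, *ND6* at -0.62 and the unnamed transcript close to 0. Lower ratios lay toward the end of the + strand. The 8 probes before base 10000 ranged from -0.54 to -0.20, among them *COX1* at -0.54 and *COX2* at -0.27, which encode subunits of complex IV. The 6 after it ranged from -1.28 to -0.81, among them *CYTB*, the mitochondrial subunit of complex III, at -0.89. In the deposited values both stretches overlapped, at -0.54 to 0.13 and -0.95 to -0.45. This division was chosen after the values were seen, and 1 further probe of the 6 overlaps that of *ND4L*. The probe at -1.28 (chrM:10860-10919, no gene name) lies at base 693 of its transcript, and that of *ND4* at base 1203. With these offsets both transcripts begin at the same base, so the unnamed probe also reads the *ND4* stretch. That base lies within the stretch of the *ND4L* probe, so the *ND4L* and *ND4* genes overlap. The 6 probes are therefore not independent. The RNAs behind these probes are cut from few precursors, so the probes do not count as replicates.

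**Figure D5:**
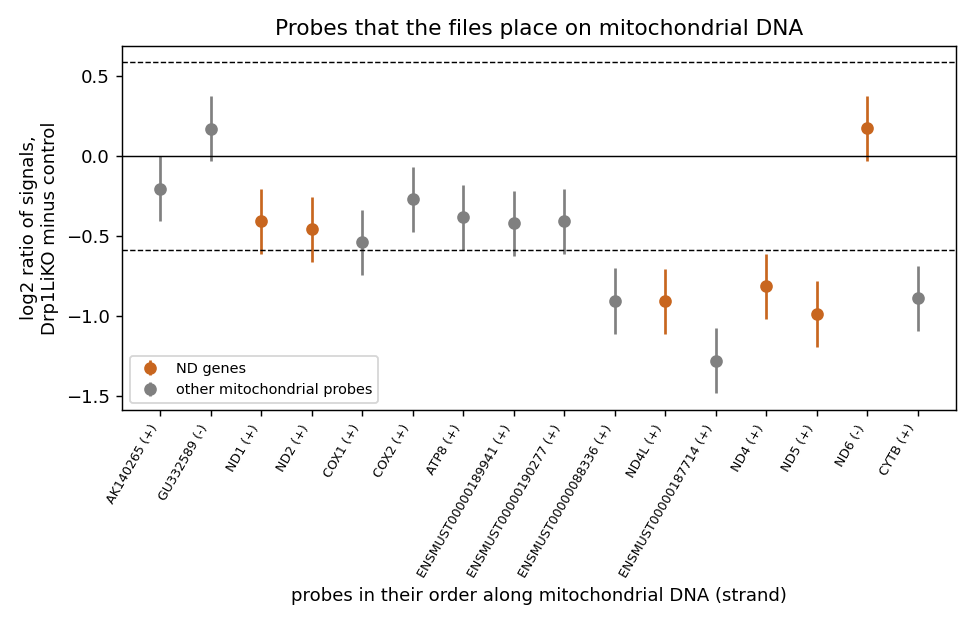
Log2 ratio of *Drp1*LiKO minus control (y axis) at the 16 probes that the files place on mitochondrial DNA, in their order along it (x axis, with the strand); bars are 1 SE of the error model, dashed lines mark 1.5-fold, and orange points are probes named as ND genes. The 14 probes of the + strand lie below 0, lowest in the later part, and the 2 of the - strand lie at 0.17, a difference between strands that the deposited values, with *ND6* at -0.62, do not have.

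Among regulators of mitochondrial genes, 11 of 12 were detected and 3 were past 1.5-fold, 2 of them higher and 1 lower, beside 10.3% of all genes in each direction. *Ppargc1a*, a coactivator that raises the expression of respiratory genes, had a signal of 133 in control against 489 in *Drp1*LiKO cells, 3.23-fold higher after scaling, with a Z score of 2.61. Its ratio of 1.69 was 1.29 with normexp background correction and 1.16 in the deposited values. *Ppargc1b*, its relative, had signals of 120 and 214, 1.56-fold higher after scaling. The DNA-binding factors with which these coactivators work were all within 1.5-fold. *Nrf1* was at -0.05, *Gabpa* at -0.21, *Esrra* at 0.21 and *Yy1* at 0.12. With the median of a gene's probes *Nrf1* was at 0.17, *Gabpa* at -0.22, *Esrra* at 0.07 and *Yy1* at 0.02. The sign of *Nrf1* thus depended on the choice of probe, and in the deposited values it was at 0.07. For transcription inside mitochondria, *Tfb2m*, which the mitochondrial RNA polymerase needs to start, had signals of 886 and 636, 1.58-fold lower after scaling, the polymerase *Polrmt* was at -0.29, and *Tfam*, which packs mitochondrial DNA and starts its transcription, was at -0.38. With normexp background correction *Ppargc1b* at 0.44 and *Tfb2m* at -0.58 were within 1.5-fold. Whether these values bear on the ND genes was not tested.

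Markers of liver cell types differed between the arrays too. Of 16 hepatocyte markers, all detected, 11 had ratios above 0, with a median log2 ratio of 0.38, and their summed signal, in multiples of each array's 75th percentile, was 1991 in control against 1973 in *Drp1*LiKO cells. All 12 detected of 16 markers of Kupffer cells and macrophages were higher, with a median of 2.42 in which 2 ratios are bounds, and their summed signal was 16.1 in control against 61.0 in *Drp1*LiKO cells. *Clec4f* and *Vsig4*, which define Kupffer cells, were above background in *Drp1*LiKO cells alone, and *Timd4*, *Cd163* and *Cx3cr1* on neither array. The array does not use *Emr1*, an older name of *Adgre1* in the same list. All 9 endothelial markers were higher, with a median of 1.66 and summed signals of 13.7 and 25.2. Of these, *Lyve1* and *Tek* were above background in *Drp1*LiKO cells alone and give bounds. Of 8 stellate cell markers 6 were detected and 5 were higher, with a median of 0.70 and summed signals of 69.3 and 80.7. *Acta2* (0.02), *Reln* (1.04) and *Dcn* (4.06) were read on both arrays. *Pdgfrb* and *Colec11*, above background in *Drp1*LiKO cells alone, give bounds. *Des*, detected likewise, gives no bound or direction, although its ratio of -0.16 enters the median. Markers detected in *Drp1*LiKO cells alone passed the filter there, so these counts partly follow from it. Of all genes, 44.5% had ratios above 0. *Lrat*, which defines stellate cells, was above background on neither array. These sums rest on few bright genes and cannot be read as shares of cells. In control cells *Acta2* made up 98.7% of the stellate sum, *Egfl7* 87.9% of the endothelial sum, *Cd68* 46.6% of the Kupffer cell and macrophage sum, and *Serpina1c* and *Alb* together 82.4% of the hepatocyte sum. The summed signal of the 45 complex I genes on this scale was 2662 and 2517. The part of other cell types in the complex I and ND values was not tested, and in whole cultures fewer cells of a type and less RNA per cell cannot be told apart.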

How the data were processed

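Total RNA of control and *Drp1*LiKO hepatocytes was labelled with Cy3. The authors deposited, for each array, Agilent Feature Extraction output (version 9.5.1.1 in the submitters' processing notes, 10.7.1.1 in the file headers) with the intensity of each spot, raw and corrected for background, and a value table of normalized intensities, whose normalization is not given in the sources used here. Its medians were 19.1 in both columns, and its rank correlation with the arrays, over probes above background on both, was 1 for control and 0.993 for *Drp1*LiKO cells. It served as an alternative.

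From the processed signals, outlier and control spots were left out, the log2 values of a probe's spots were averaged, and each array was scaled to its 75th percentile. A gene was its brightest probe, and 30275 probes (20165 genes) well above background on at least 1 array were kept. Signals below that were raised to the lowest signal well above background, 18.2 for control and 15.0 for *Drp1*LiKO cells, and the higher of that and the probe's own signal sets a bound. The Z score was taken over the kept probes (SD 0.65).

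Members and lists were chosen with earlier results of these data known. Named genes were the core subunits, of which 1 is not reported here, the highest and lowest ratio of each other role, genes with more than 1 kept probe, the brightest member, and members of the lists of other complex I genes. Further genes were named to describe their role after their values were seen. Probe names and positions are those of the files (mm9), and promoters are those of RefSeq (GRCm38.p6). Alternatives were quantile normalization, spike-in scaling, normexp with an offset of 50, the deposited values, stricter and no filtering of dim probes, outlier spots kept, no floor, the median of probes and a robust Z score. The main scaling, the choice of the brightest probe and the ratios were tested on a copy of the control array with set changes added. The alternatives, the bounds and the promoter search were not tested in this way. The number of arrays, 1 per genotype, limits the precision. Python 3.11.15 with pandas 2.3.3 and R 4.3.3 with limma 3.58.1 were used.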

Additional observations from a re-analysis of the deposited data

How the results depend on the processing

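The median log2 ratio of the complex I genes stayed between -0.09 and -0.05 under all alternatives run, and between 13 genes (deposited values) and 17 (spike-in scaling) had ratios above 0, against 15. The counts of members past 1.5-fold and past a Z score of 2 were 0 under each of them. The median of the ND genes, for which alternatives were chosen after seeing the data, as they were for the role classes, the limit of 2 SE and the other mitochondrial probes, and as was the comparison with genes in the same signal range, stayed between -0.46 and -0.42. Of 405 single values of members, 4 moved by more than their SE. With the median of a gene's probes *Ndufaf6* had a ratio of 0.10 and *Ndufv3* one of -0.40, and in the deposited values *Ndufb3* had -0.24 and *Ndufb6* -0.12. Of 63 values of ND genes 5 moved, all in the deposited values. With no filter on dim probes the median of all genes went from -0.05 to -0.47, because the floors of the arrays differ and set the ratio of every probe that neither array detected, and that of complex I stayed at -0.09. No paired analysis was possible because each genotype has 1 array. *Ndufaf3* and *Ndufa4l2*, with the lowest control signals of the family, rest on the weakest probes, although these lie well above background.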
